A study of Mus musculus with 16 samples.

Results

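The mitochondrial ribosomal protein genes are the nuclear genes for the proteins of the mitoribosome, here the protein-coding genes whose mouse symbol is Mrpl or Mrps followed by a number. The rule found 78 genes among the 46078 genes of the count table, 49 with a large-subunit symbol (Mrpl) and 29 with a small-subunit symbol (Mrps), and all 78 were in the table. They were measured in pools of 30 haematopoietic stem cells (HSCs), sorted as LSK CD48-CD150+ cells from endosteal (bone fraction) or central (marrow fraction) bone marrow of C57/Bl6 mice that were WT or labelled Gfra2-/-. Gfra2-/- mice lack the receptor GFRα2, which binds neurturin. No group received a treatment, and the age of the mice and the number of mice behind a pool are not given in the sources used here. The 15 libraries were 4 endosteal and 4 central WT libraries, 4 endosteal libraries labelled Gfra2-/- and 3 central ones. Libraries are lettered within a group in the order of the columns, and the letters pair nothing across groups. The study calls the libraries of a group biological replicates, but no source used here says whether each came from a separate mouse. The p-values therefore set a group difference against the spread between libraries, which may not be that between mice.

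The mitoribosome translates the mRNAs of the mitochondrial genome, all of which encode subunits of the respiratory chain and the ATP synthase. Its rRNAs are made inside mitochondria, but all of its proteins are encoded in the nucleus, made by cytosolic ribosomes and imported. HSCs rest with little respiration while they stay quiescent and raise mitochondrial activity when they enter the cycle, and their maintenance is sensitive to defects of mitochondrial protein synthesis. Some of the proteins descend from bacterial ribosomal proteins, and others occur only in mitochondria. The symbols follow the first purification rather than the place in the particle: Mrps18a and Mrps30 carry small-subunit symbols, but their proteins sit in the large subunit, and Mrps36, also named Kgd4, encodes a subunit of the α-ketoglutarate dehydrogenase complex.

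The count table holds the reads that the authors assigned to each gene, from polyadenylated RNA amplified by Smart-seq2, and 826487 to 18550008 of these reads per library fell on genes. The 4 central WT libraries were the shallowest, with 826487 to 3367289 reads, and endosteal WT library A, with 4416648, was the next. Central WT libraries A and C did not pass quality limits modelled on those of the study (over 1500000 uniquely mapped reads, under 20% mitochondrial reads and over 8500 genes with at least 10 counts, as read from the table), but stay in every value unless stated. Differences in depth therefore go with every comparison that uses central WT HSCs. The share of spike-in reads was under 0.5% in 1 library of each group, library D of the first 3 groups and library C of central Gfra2-/- HSCs. The text calls these a spike-in batch, but the 0.5% cut was set here, and neither sample titles nor column names give a batch. Counts of Gfra2 itself were at most 4 in every WT library and at most 1 in central Gfra2-/- HSCs, but 2, 47, 1 and 9 in libraries A to D of endosteal Gfra2-/- HSCs. The counts in B and D raise a doubt about the label, but come from 18550008 and 11985523 gene counts. Central WT library C had its 4 among 826487. Counts of Gfra2 were too low in WT libraries to check the genotype, which is written as a label throughout. The HSC genes Kit, Ly6a, Slamf1, Mecom, Hlf and Procr had counts in every library, from 412 to 12599 for Kit and from 7 to 1642 for Slamf1. Of genes of other cells, the B-cell genes Cd79a and Ms4a1 had 3676 and 1550 counts in endosteal Gfra2-/- library D, and at most 303 and 96 in any other library. CPM below are counts scaled to library size with TMM factors. S100a8, a granulocyte gene, had 2564 counts in central WT library D and at most 15 in any other library. Cd3g, a T-cell gene, had 188 counts in central Gfra2-/- library B and 0 in every other. The part of these cells in the results below was not tested. Libraries were left out in turn for the medians over all Mrp genes, but not for those of subunits, motif groups or other lists.

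The genes were expressed at moderate levels in every group. Over all libraries their mean level had a median of 17.3 CPM per kb of exon, 18.6 for large-subunit and 13.2 for small-subunit symbols. Between 73 and 78 of the 78 genes had at least 1 count in a library, and 54 to 72 had at least 10 counts in central WT libraries, against 73 to 77 in the other groups. In sum they took up 0.323% to 0.554% of the counts on genes. No gene dominated this sum. The largest, Mrps14, a small-subunit protein of bacterial descent, held 3.36% of it, and the first 10 genes held 25.8%.

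The highest levels per length were those of Mrpl34 (100.04 CPM per kb), Mrpl52 (86.0), Mrpl28 (84.5), Mrpl36 (80.9) and Mrps24 (72.7). All but Mrps24 carry large-subunit symbols, and Mrpl34, Mrpl28, Mrpl36 and Mrps24 have bacterial counterparts, whereas Mrpl52 is specific to mitochondria. For Mrpl34, the group means were 139 ± 39.6 CPM per kb (SD, n = 4) in endosteal WT HSCs, 80.4 ± 31.6 (SD, n = 4) in central WT HSCs, 76.8 ± 7.56 (SD, n = 4) in endosteal Gfra2-/- HSCs and 106 ± 46.6 (SD, n = 3) in central Gfra2-/- HSCs. These spreads are wider than the steps between the 5 genes, so their order is not firm.

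Among the 72 genes with a count in every library, the lowest were Mrps35 (5.40 CPM per kb), Mrpl1 (4.70), Mrpl48 (4.69), Mrps10 (4.37) and Mrpl23 (0.926). Lengths are those of all annotated exons merged, so the order of levels per kb depends on annotated length. Mrps35, Mrpl48 and Mrps10 had 46.6, 38.3 and 35.3 CPM over 8.63, 8.15 and 8.08 kb. Mrpl34, the highest per kb, had 60.7 CPM over 0.607 kb. Mrpl53 was at 0 in 12 of 15 libraries and had at most 7 counts in any. Of its exon sequence, 88.0% is shared with other genes, and reads on shared sequence cannot be assigned to 1 gene, so its low counts say little of its expression. Mrpl23, an exit-tunnel protein, has a processed pseudogene, Mrpl23-ps1, which took 5787 counts over the 15 libraries against 671 for Mrpl23 itself. Mrpl48-ps took 2284 counts against 4365 for Mrpl48, and Mrps36-ps1 took 496 against 306 for Mrps36. Reads that match a gene and its copy equally cannot be divided between them, so the levels of Mrpl23, Mrpl48 and Mrps36 are uncertain.

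**Figure D1:**
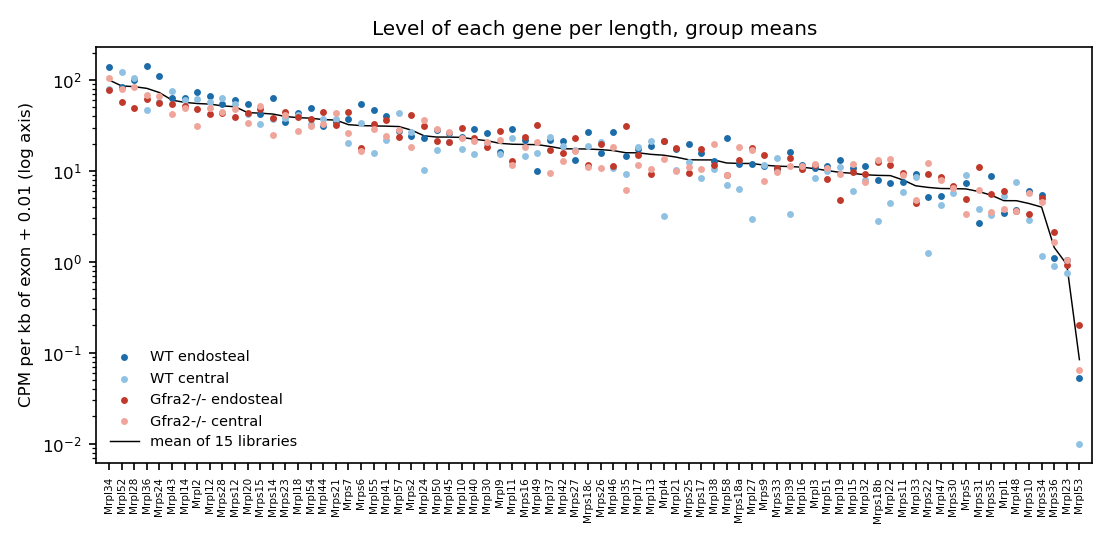
Mean level of the 78 genes in CPM per kb of exon (log axis, with 0.01 added so that a level of 0 can be drawn), in order of the mean over 15 libraries (line); each point is the mean of 1 group. The order runs from Mrpl34 at 100.04 to Mrpl53 at 0.0741 CPM per kb, and central WT points (light blue) show the widest departures from the line.

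Of members with a known place or role in the particle, those named in this paragraph lay between 8.93 and 54.3 CPM per kb. Mrpl12, the stalk protein that recruits elongation factors, had 54.3 CPM per kb, above its neighbours at the stalk base, Mrpl10 (23.4) and Mrpl11 (19.7). Mrps12, at the decoding centre, had 50.8, and Mrps7, in the head of the small subunit, 32.3. Mrpl45, which ties the exit tunnel to the inner membrane, had 23.6 CPM per kb, Mrpl44, a protein with an RNase III fold, 36.7, Mrpl3, in the large-subunit core, 10.6, and Mrps16 and Mrps27 19.5 and 17.4. The 3 paralogs of bacterial S18 were at 17.4 (Mrps18c), 12.1 (Mrps18a) and 8.93 (Mrps18b) CPM per kb. Mrps18b had 0, 1, 0 and 69 counts in libraries A to D of central WT HSCs, and 76 to 655 in the libraries labelled Gfra2-/-. Libraries A to D of endosteal WT HSCs had 2, 270, 349 and 207 counts. Of its exon sequence, 30.5% is shared with Gm16279 on the opposite strand. From these counts, its level in central WT HSCs cannot be placed.

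The replicates of 1 group varied strongly. For the median gene, the SD was 44.4% of the mean in endosteal WT HSCs, 67.0% in central WT HSCs, 38.3% in endosteal Gfra2-/- HSCs and 40.7% in central Gfra2-/- HSCs. A pool holds 30 cells, and the widest spread fell to the group with the fewest reads.

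Promoters of these genes held certain short motifs more often than promoters in general. RefSeq promoter windows (GRCm38.p6, from 250 bases before to 50 bases after a start) matched 69 of the 78 genes by symbol. The letters GCGCANGCG, of the type bound by NRF1, a regulator of nuclear genes for mitochondria, were found on either strand for 16 of 69 genes (23.2%), against 7.03% of all 27025 symbols with a promoter and 15.4% of the 10027 symbols tested over all libraries. CCGGAAG, of the type bound by ETS factors such as GABP, was found for 26 (37.7%), against 9.93% and 20.3%. AAGATGGCG, of the type bound by YY1, was found for 8 (11.6%), against 1.64% and 3.65%. Of the 69 genes, 42 (60.9%) held at least 1 of these 3 motifs, against 16.5% of all symbols, and 8 (11.6%) held a pair of them, against 1.97%. For these combined counts the share among the 10027 tested symbols was not computed. For each of these 3 motifs alone it lay above that of all symbols, so the comparison with all symbols overstates the difference from tested genes. GGGCGG, bound by Sp1, was found for 34 (49.3%), against 38.2% and 67.7%, and CACGTG, an E-box, for 5 (7.25%), against 8.09% and 11.9%. TATAAA was found for 5 genes (7.25%; 15.7% and 8.59%) and CCAAT for 27 (39.1%; 41.1% and 42.6%). No motif contains another, and a match describes letters, not binding.

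The following windows are those of the genes with an unadjusted p under 0.05 in at least 1 pairwise comparison below whose promoter held an NRF1-, ETS- or YY1-type motif. They run from 90 bases before to 20 bases after the start, or over 30 bases around the motif where it lies further downstream, on the strand of the gene, with the motif in capitals.
Mrpl36 (chr13:73330919-73331028, plus strand, YY1-type in reverse): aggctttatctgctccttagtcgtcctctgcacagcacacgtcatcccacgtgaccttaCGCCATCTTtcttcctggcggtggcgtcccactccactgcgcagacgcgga
Mrpl58 (chr11:115403662-115403771, plus strand, ETS-type, 2 copies): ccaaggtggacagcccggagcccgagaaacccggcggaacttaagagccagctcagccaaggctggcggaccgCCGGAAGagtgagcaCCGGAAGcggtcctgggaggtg
Mrpl34 (chr8:71464836-71464945, plus strand, ETS-type): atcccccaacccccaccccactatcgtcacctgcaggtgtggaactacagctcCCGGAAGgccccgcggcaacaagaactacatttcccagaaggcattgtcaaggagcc
Mrps22 (chr9:98601660-98601769, minus strand, ETS-type): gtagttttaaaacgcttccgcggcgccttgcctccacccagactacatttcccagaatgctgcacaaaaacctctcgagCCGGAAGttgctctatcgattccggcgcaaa
Mrps26 (chr2:130563667-130563776, plus strand, ETS-type in reverse, then NRF1-type, 2 overlapping copies): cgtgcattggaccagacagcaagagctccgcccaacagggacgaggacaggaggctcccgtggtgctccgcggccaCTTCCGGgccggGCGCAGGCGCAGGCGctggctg
Mrps9 (chr1:42851143-42851252, plus strand, NRF1-type in reverse): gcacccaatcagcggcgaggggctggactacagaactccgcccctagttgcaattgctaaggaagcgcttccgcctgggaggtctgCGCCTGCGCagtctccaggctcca
Mrpl35 (chr6:71823742-71823771, minus strand, YY1-type): ggcaggctgcAAGATGGCGgcttccatctt
Mrps24 (chr11:5707652-5707681, minus strand, YY1-type): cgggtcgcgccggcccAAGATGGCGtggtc
The windows of Mrpl28, Mrps6, Mrps25 and Mrps31 held none of the 3 motifs, and Mrpl4 and Mrpl13 had no entry in the table. Between endosteal and central WT HSCs, the genes with at least 1 of the motifs had a median of 0.23 on the log2 scale (28 of 41 above 0), and those with none had 0.39 (20 of 26). Between the genotypes in central HSCs the medians were -0.061 (19 of 41) and 0.23 (16 of 26), and in endosteal HSCs -0.15 (18 of 41) and -0.17 (11 of 27). Between compartments under the Gfra2-/- label they were 0.063 (22 of 41) and 0.15 (18 of 27). The differences between genes with and without a motif were not tested.

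The first comparison asked whether the position of WT HSCs in the marrow goes with the expression of these genes. Their summed share of counts was higher in endosteal HSCs. It was 0.481%, 0.456%, 0.442% and 0.554% in libraries A to D of endosteal WT HSCs and 0.323%, 0.377%, 0.354% and 0.371% in libraries A to D of central WT HSCs. The groups did not overlap, for large-subunit genes (0.271% to 0.359% against 0.205% to 0.258%) as for small-subunit genes (0.155% to 0.194% against 0.0958% to 0.131%). The means were 0.483 ± 0.0496% (SD, n = 4) and 0.356 ± 0.0239% (SD, n = 4). In such pools, fewer cells that express a gene and less RNA per cell cannot be told apart.

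The difference of the shares did not rest on a single gene: the 10 genes with the largest differences made up 49.8% of the net total. Of 78 genes, 62 had the higher mean share in endosteal WT HSCs. The matching count over all genes was not taken, so 62 of 78 is not read as a trait of these genes. After TMM scaling, 55 of the 76 genes tested (72.4%) were above 0, against 51.5% of all genes. The 100 largest genes of a library held 22.5% to 28.4% of endosteal and 28.7% to 31.6% of central WT counts. Without them, the shares of the Mrp genes were 0.645 ± 0.0667% (SD, n = 4) and 0.511 ± 0.0275% (SD, n = 4). Within the spike-in batches the shares of all gene counts were 0.460 ± 0.0198% (SD, n = 3) and 0.351 ± 0.0267% (SD, n = 3) in the batch with more spike-in, and 0.554% and 0.371% in the single libraries of the other. All 4 central WT libraries had fewer reads than the endosteal ones, so depth and compartment cannot be told apart here. Endosteal WT HSCs were the group with the highest mean CPM for 31 of 78 genes (39.7%; 21.9% of all 15416 genes tested over the 4 groups), and central WT HSCs the lowest for 33 (42.3%; 36.5% of all genes).

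**Figure D2:**
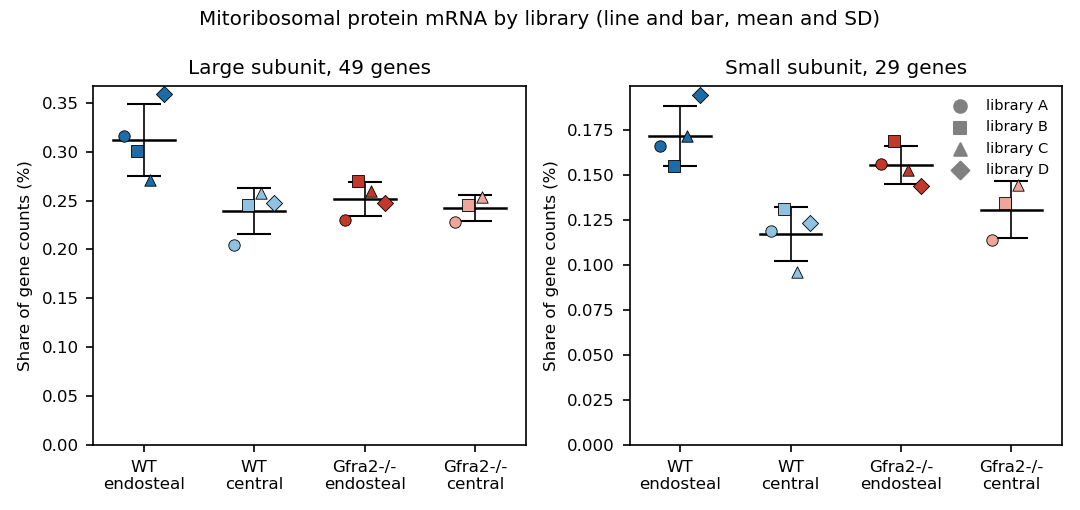
Share of the counts on genes, in percent, taken up by genes with large-subunit symbols (left) and small-subunit symbols (right) in each library; the symbol shape gives the letter of the library, and line and bar give mean and SD of the group. Every endosteal WT library lies above every central WT library in both panels, and above every endosteal Gfra2-/- library for the large subunit.

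Gene by gene, the differences between endosteal and central WT HSCs were small against the spread of the replicates. The 76 genes past the filter on low counts had a median log2 fold change of 0.33, against 0.03 over all 11181 genes tested, and 55 of them (72.4%) were above 0, against 51.5% of all genes. The median was 0.52 without central WT library B. With only the libraries past the quality limits, which leaves out central WT libraries A and C, it was 0.27 against 0.15 over all genes, so that the difference from all genes fell from 0.30 to 0.12, and 66.2% of the genes were above 0 against 55.6% of all genes. None passed an FDR of 10% with edgeR (0.0% of all genes did). At an unadjusted p under 0.05, 3 were higher in endosteal HSCs (3.95% of 76 genes; 4.43% of all genes) and 0 were lower (3.46% of all genes). Groups were fully apart for 2 genes, both higher (4.27% of all genes), and for 0 lower genes (2.09% of all genes). DESeq2 called 1 gene, Mrpl4 (1.83% of all genes). The counts of single genes past a threshold were thus no more frequent than among all genes.

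Mrpl4 (chromosome 9, 21002738 to 21008839) was the gene with the smallest p. It encodes the counterpart of bacterial L4, a large-subunit protein with a loop that lines the exit tunnel. Its level was 51.2, 49.7, 58.2 and 63.2 CPM in libraries A to D of endosteal WT HSCs and 13.6, 3.11, 10.7 and 5.73 CPM in libraries A to D of central WT HSCs, from only 15, 10, 8 and 17 counts in the latter. All 4 endosteal libraries were above all 4 central ones. The log2 fold change was 2.75 (standard error 0.80, FDR = 0.449 with edgeR and 0.0218 with DESeq2), and it lay between 2.48 and 3.13 when each library was left out in turn. Its exons overlap no other gene.

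Mrpl36 (chromosome 13, 73328513 to 73332178) encodes a small zinc-binding protein of the large subunit. It had 302, 65.7, 98.0 and 198 CPM in libraries A to D of endosteal WT HSCs and 59.7, 45.1, 48.3 and 64.4 CPM in central ones. No overlap was seen, but endosteal library B and central library D lay side by side. The log2 fold change was 1.59 (standard error 0.53, FDR = 0.483 with edgeR, 0.185 with DESeq2). Mrpl36 also made the largest contribution to the difference in summed share, 8.94% of it.

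Mrpl58 encodes a peptidyl-tRNA hydrolase built into the large subunit, which releases chains from stalled ribosomes. It had 38.7 to 101 CPM in endosteal and 7.46 to 57 CPM in central WT libraries, so the groups overlapped (log2 fold change 1.69, standard error 0.78, FDR = 0.626 with edgeR). Mrpl39, a mitochondria-specific protein related to threonyl-tRNA synthetase, differed by 2.21 on the log2 scale (standard error 1.11), with 40.6 ± 20.9 CPM (SD, n = 4) in endosteal and 8.56 ± 8.66 CPM (SD, n = 4) in central WT libraries. In the other direction, the smallest p-values were those of Mrpl48 (log2 fold change -1.07), Mrpl57 (-0.65), Mrpl52 (-0.56) and Mrpl49 (-0.68), all mitochondria-specific large-subunit proteins. Each of the 4 had overlapping groups and an unadjusted p over 0.1. The level of Mrpl48 is uncertain, since its pseudogene also held counts and shared reads were not measured.

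**Figure D3:**
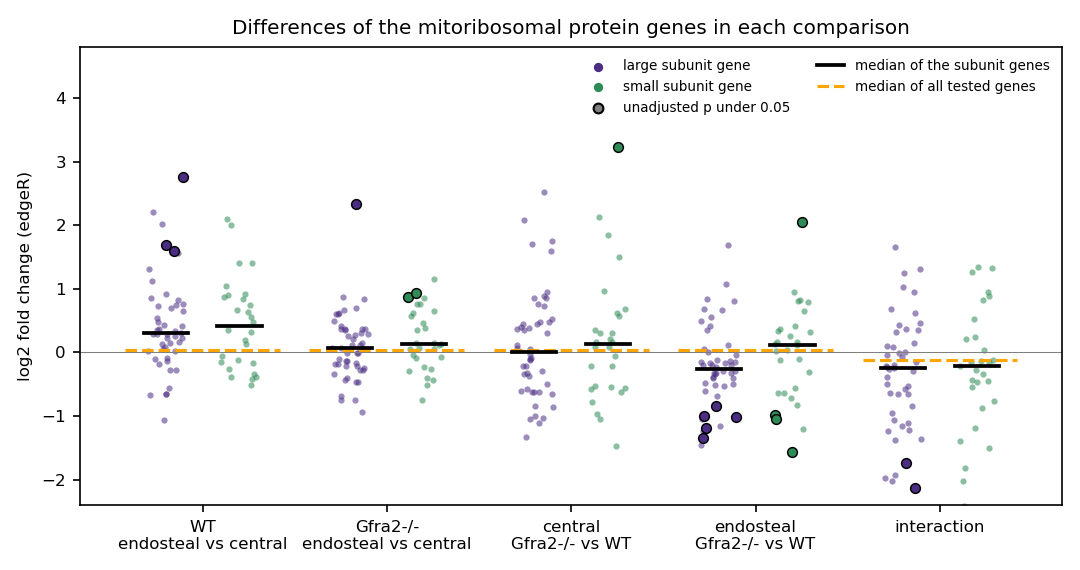
log2 fold changes from edgeR of the genes past the filter in the 4 pairwise comparisons and of the interaction of genotype and compartment; points are genes with large-subunit (purple) or small-subunit (green) symbols, black lines their medians, dashed lines the median of all tested genes, and outlined points have an unadjusted p under 0.05. Both medians lie above that of all genes between endosteal and central WT HSCs, and most outlined points between the genotypes in endosteal HSCs lie below 0.

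The same compartments were compared among HSCs of the Gfra2-/- label. The shares of counts were 0.386%, 0.439%, 0.412% and 0.391% in endosteal libraries A to D and 0.342%, 0.379% and 0.398% in central libraries A to C. The means of 0.407 ± 0.0243% (SD, n = 4) and 0.373 ± 0.0287% (SD, n = 3) lay close together, and the groups overlapped. In the batch with more spike-in the means were 0.412% and 0.361%, whereas in the other batch the endosteal library, at 0.391%, lay below the central one, at 0.398%. That endosteal library is D, which also held the B-cell transcripts. The 77 genes tested had a median log2 fold change of 0.11 (0.03 over all 13860 genes), which became -0.013 without endosteal library B, 0.17 and 0.19 without central libraries B and C, and 0.027 without both endosteal libraries B and D, and 44 of them (57.1%) were above 0, against 51.6% of all genes.

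None of the 77 passed an FDR of 10% with edgeR (0.0% of all genes). At an unadjusted p under 0.05, 3 were higher in endosteal HSCs (2.74% of all genes) and 0 lower (2.05% of all genes). The groups did not overlap for 4 higher genes (Mrpl35, Mrpl4, Mrps9 and Mrps26; 3.67% of all genes) and for 0 lower ones (3.67% of all genes). DESeq2 called 1 gene, Mrpl35 (1.08% of all genes).

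Mrpl35 (chromosome 6, 71812997 to 71826969), a large-subunit protein with a bacterial counterpart, had 164, 75.5, 112 and 162 CPM in libraries A to D of endosteal Gfra2-/- HSCs and 34.9, 28 and 13.6 CPM in the central ones. Every endosteal library held at least 75.5 CPM and every central one at most 34.9. The log2 fold change was 2.33 (standard error 0.48, FDR = 0.805 with edgeR and 0.000824 with DESeq2), and it lay between 2.03 and 2.62 with each library left out in turn. Mrpl35 made the largest contribution to the difference in summed share in this comparison, equal to 30.5% of it. That difference is a net one, from 45 genes with a higher and 33 with a lower share. The first 7 genes already reach 110.8% of it. In WT HSCs it had 9.50 to 98.4 CPM in endosteal and 21.9 to 46.3 CPM in central libraries.

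Mrps9 and Mrps26 also separated the compartments under this label. Mrps9, a small-subunit protein of bacterial descent, had 58.1 to 109 CPM in the 4 endosteal and 40.2 to 53.2 CPM in the 3 central libraries (log2 fold change 0.93, standard error 0.39, FDR = 0.999 with edgeR). Mrps26, specific to mitochondria, had 71.0 to 96.5 and 32.5 to 56.2 CPM (log2 fold change 0.87, standard error 0.37, FDR = 0.999 with edgeR). Mrps14 had a log2 fold change of 0.62 with overlapping groups. The smallest p-values in the other direction were those of Mrpl28 (log2 fold change -0.74), Mrpl38 (-0.76), Mrps10 (-0.75) and Mrpl52 (-0.47), each with an unadjusted p over 0.1.

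In central HSCs, the genes showed no common difference between the genotypes. The shares overlapped, with 0.323% to 0.377% in WT and 0.342% to 0.398% in Gfra2-/- libraries, and the 76 genes tested had a median log2 fold change of 0.08 (0.03 over all 11772 genes), with 40 of them (52.6%) above 0 against 51.4% of all genes. The median was -0.0088 without WT library A, 0.18 and 0.15 without WT libraries B and D, and -0.029 and -0.097 without Gfra2-/- libraries B and C, so its sign rests on single libraries. With edgeR, 0 of 76 genes passed an FDR of 10% (0.051% of all genes). At an unadjusted p under 0.05, 1 was higher (4.6% of all genes) and 0 were lower (4.14% of all genes). The groups did not overlap for 5 genes that were higher in Gfra2-/- libraries (Mrpl4, Mrpl24, Mrpl27, Mrpl39 and Mrps22; 7.99% of all genes) and for 0 that were lower (4.44% of all genes). DESeq2 called 1 gene, Mrps22 (3.13% of all genes).

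Mrps22 (chromosome 9, 98588730 to 98601660), a mitochondria-specific small-subunit protein, had 6.34, 10.9, 1.34 and 1.35 CPM in libraries A to D of central WT HSCs, from 7, 35, 1 and 4 counts, and 16.1, 32.7 and 95.8 CPM in libraries A to C of central Gfra2-/- HSCs. The groups did not overlap, but the Gfra2-/- libraries also lay far apart among themselves. The log2 fold change was 3.23 (standard error 1.13, FDR = 0.425 with edgeR and 0.0983 with DESeq2), and 2.22 to 4.00 with each library left out. In libraries A to D of endosteal WT HSCs, Mrps22 had 2.19, 37.6, 36.8 and 5.97 CPM, a range that spans both central groups.

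Mrpl4 again separated the groups: its 37.9, 33.9 and 34.0 CPM in central Gfra2-/- libraries lay above the 3.11 to 13.6 CPM of central WT libraries (log2 fold change 2.08, standard error 0.97, FDR = 0.576 with edgeR). For Mrps18a and for Mrpl24, a large-subunit protein of bacterial descent, the log2 fold changes were 1.5 and 1.75 with standard errors of 0.84 and 1.03. In the other direction, Mrps5 (log2 fold change -1.47), Mrpl37 (-1.33), Mrps26 (-0.96) and Mrpl2 (-1.0), a protein of the peptidyl transferase centre, had the smallest p-values, all over 0.1 before adjustment. Central WT library A held 184 CPM of Mrps26, against 51.2 to 69.7 in the other 3.

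**Figure D4:**
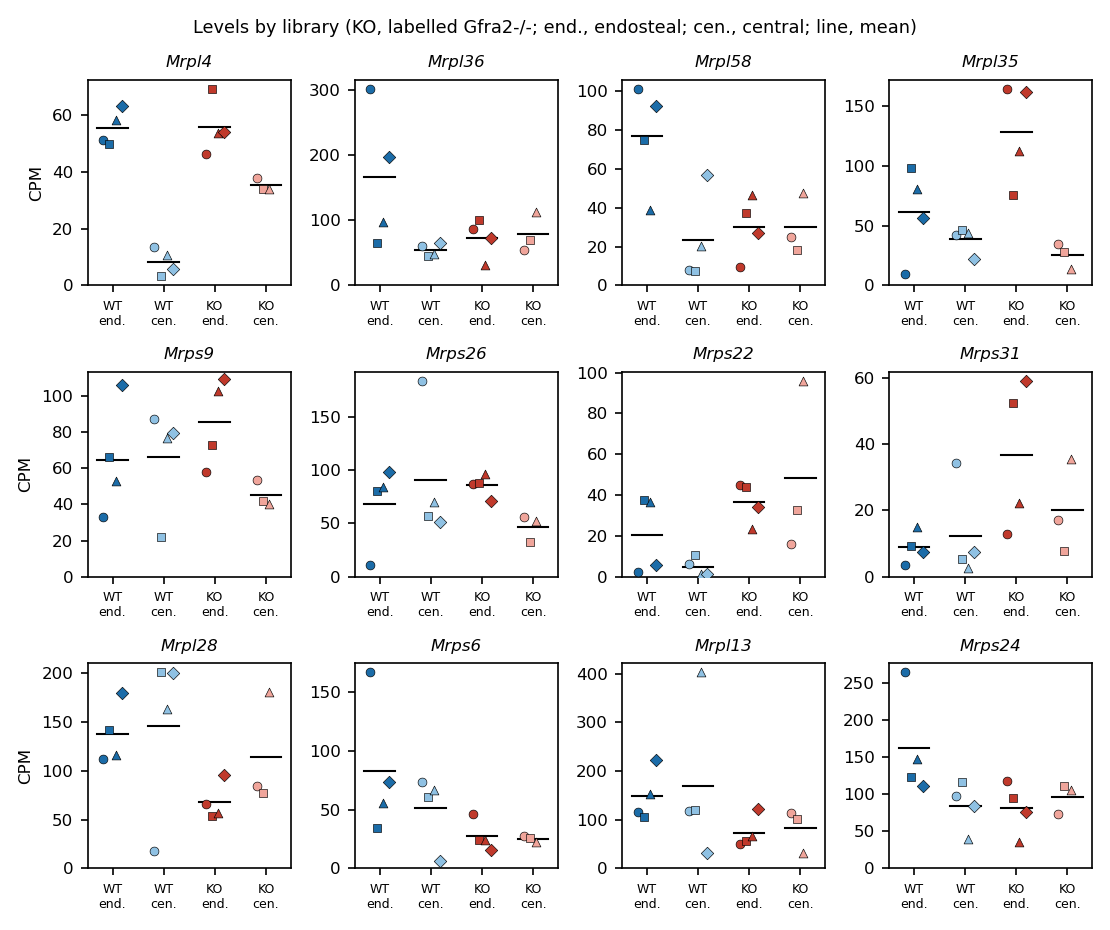
CPM of 12 genes in each library (point shape gives the letter of the library, horizontal lines the group means). Mrpl4 lies between 3.11 and 13.6 CPM in central WT libraries and above 33 CPM in all others, and Mrpl35 lies above 75 CPM in all endosteal Gfra2-/- libraries and below 35 CPM in all central ones.

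In endosteal HSCs, the summed share was lower under the Gfra2-/- label. The shares of 0.386% to 0.439% all lay below the 0.442% to 0.554% of the WT libraries. For large-subunit genes the groups did not overlap either (0.230% to 0.270% against 0.271% to 0.359%), whereas for small-subunit genes they did (0.144% to 0.169% against 0.155% to 0.194%). Within the spike-in batches the means were 0.412 ± 0.0267% (SD, n = 3) against 0.460 ± 0.0198% (SD, n = 3), and 0.391% against 0.554% in the single libraries of the other. Without Gfra2-/- libraries B and D, which had Gfra2 counts of 47 and 9, the shares under that label were 0.386% and 0.412%.

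The 77 genes tested had a median log2 fold change of -0.17, against 0.03 over all 12970 genes, and 30 of them (39.0%) were above 0, against 51.5% of all genes. The median was -0.28 without WT library C, -0.26 without Gfra2-/- libraries B and D, and -0.11 with only the libraries of the batch with more spike-in, where 45.5% of the genes were above 0 against 50.5% of all genes. The 48 genes with large-subunit symbols had a median of -0.26 with 35 lower, and the 29 with small-subunit symbols one of 0.12 with 12 lower. Whether the subunits differ was not tested. The mean share of small-subunit genes was also lower under the Gfra2-/- label, at 0.155% against 0.171%. At an unadjusted p under 0.05, 5 of the 48 genes with large-subunit and 3 of the 29 with small-subunit symbols were lower. None passed an FDR of 10% with edgeR (0.0% of all genes) or with DESeq2 (1.03% of all genes). At an unadjusted p under 0.05, 8 were lower, 10.4% of the 77, where 3.52% of all genes were, and 1 was higher (3.18% of all genes). With only the libraries of the batch with more spike-in, 2 genes in all had such a p, and without libraries B and D 3 had. The groups did not overlap for 2 lower genes, Mrpl28 and Mrpl34 (3.55% of all genes), and for 0 higher ones (2.69% of all genes). The genes of this list are not independent of each other, and the excess at an unadjusted p was not tested.

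Mrpl28 (chromosome 17, 26123500 to 26126613), of the large subunit, had 112, 142, 116 and 180 CPM in libraries A to D of endosteal WT HSCs and 65.8, 54.1, 57.2 and 95.8 CPM in libraries A to D of endosteal Gfra2-/- HSCs. All Gfra2-/- libraries were below all WT libraries, and library D, which held the B-cell transcripts, was the nearest to them. The log2 fold change was -1.01 (standard error 0.33, FDR = 0.737 with edgeR), between -1.23 and -0.85 with each library left out. Mrpl34 had 63.4 to 119 CPM in WT and 40.2 to 51.1 CPM in Gfra2-/- libraries (log2 fold change -0.85, standard error 0.37, FDR = 0.737 with edgeR).

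The other 6 genes with an unadjusted p under 0.05 had log2 fold changes of -1.57 (Mrps6), -1.35 (Mrpl58), -1.19 (Mrpl36), -1.05 (Mrps25), -1.02 (Mrpl13) and -0.99 (Mrps24), and each had overlapping groups. Mrps6, a small-subunit protein of bacterial descent, had 167, 34.0, 55.7 and 73.7 CPM in WT libraries A to D and 46.3, 24.5, 24.2 and 15.6 CPM in Gfra2-/- libraries. Only WT library B fell within the range of the Gfra2-/- libraries. Of the exons of Mrps25, 69.8% overlap Nr2c2 on the other strand, and counting without strand cannot divide such reads. Mrps31, a mitochondria-specific small-subunit protein, was the gene that was higher: 3.66, 9.33, 14.9 and 7.53 CPM in WT and 12.9, 52.4, 22.3 and 59.1 CPM in Gfra2-/- libraries A to D. The log2 fold change was 2.05 (standard error 0.78, FDR = 0.737 with edgeR), and the 2 highest libraries were B and D, which had Gfra2 counts of 47 and 9. Mrpl49 (log2 fold change 1.68), Mrpl35 (1.07) and Mrpl9 (0.80) followed, each with overlapping groups.

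The interaction asked whether the difference between the compartments depended on the genotype label. The median of the 77 genes was -0.25 on the log2 scale, with 26 (33.8%) above 0, against -0.12 and 46.3% over all 15416 genes, and -0.09 with DESeq2 size factors, where all genes had 0.03. It was -0.43 and -0.16 without central Gfra2-/- libraries A and C, and -0.40 without central WT library B. The difference from all genes, -0.13, changed sign with only the libraries past the quality limits (-0.18 against -0.26), without central WT library A (-0.17 against -0.19) and with only the libraries of the batch with more spike-in (-0.17 against -0.18). None passed an FDR of 10% with edgeR (0.0% of all genes) or DESeq2 (1.15% of all genes). At an unadjusted p under 0.05 there were 2 negative values (4.41% of all genes), those of Mrpl4 and Mrpl36, and 0 positive ones (2.56% of all genes). For Mrpl4 the difference between the genotypes was -2.12 (standard error 0.80, FDR = 0.586 with edgeR). Its mean level was 55.6 ± 6.29 CPM (SD, n = 4) in endosteal WT, 8.29 ± 4.74 (SD, n = 4) in central WT, 55.7 ± 9.55 (SD, n = 4) in endosteal Gfra2-/- and 35.3 ± 2.26 (SD, n = 3) in central Gfra2-/- HSCs, so that central WT HSCs stood apart. For Mrpl36 it was -1.73 (standard error 0.72, FDR = 0.631 with edgeR), and here endosteal WT HSCs, with 166 ± 107 CPM (SD, n = 4), stood apart from the other means of 54.4, 72.5 and 79.1 CPM. Mrpl34 (-1.24) and Mrps24 (-1.19) followed among negative values, and Mrpl35 (1.66), Mrps26 (1.26), Mrps2 (1.32) and Mrps9 (0.95) among positive ones. Every pairwise comparison shares libraries with 2 of the others, so their values are not independent of each other.

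Genes that act with the mitoribosome did not follow one pattern. The 5 mitoribosomal proteins under other symbols (Dap3, Ptcd3, Aurkaip1, Chchd1 and Gadd45gip1) had a median log2 fold change of -0.05 between endosteal and central WT HSCs and -0.28 between the genotypes in endosteal HSCs, and 0 of 5 had an unadjusted p under 0.05 in any pairwise comparison. Ptcd3 and Gadd45gip1 had log2 fold changes of 0.84 and 0.84 in the WT comparison, Dap3 had -0.74 between the compartments under the Gfra2-/- label, and Chchd1 had -0.40 between the genotypes in endosteal HSCs. With 5 genes, their medians cannot be set apart from those of the Mrp genes.

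Of 22 assembly factors, which fold and modify the rRNAs and join the subunits, 9 were higher and 13 lower in endosteal than in central WT HSCs, with a median of -0.24. Gtpbp10, a GTPase of large-subunit assembly, had 14.4 ± 10.9 CPM (SD, n = 4) in endosteal and 1.56 ± 1.14 CPM (SD, n = 4) in central WT libraries (log2 fold change 3.22, standard error 1.2, FDR = 0.563 with edgeR). Rpusd4, a pseudouridine synthase, had 39.1 ± 20.6 and 6.94 ± 5.08 CPM (log2 fold change 2.44, FDR = 0.580 with edgeR). The groups of both genes did not overlap, and in central HSCs their log2 fold changes between the genotypes were 3.27 and 1.95, against the same central WT libraries. Fastkd2, an RNA-binding protein needed for the large rRNA, was lower in endosteal Gfra2-/- libraries, with 24.1 ± 7.31 against 74.0 ± 40.3 CPM in WT (log2 fold change -1.61, standard error 0.52, FDR = 0.737 with edgeR).

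Among 15 translation factors and partners, Lrpprc and Oxa1l separated WT compartments in opposite directions. Lrpprc, which stabilises mitochondrial mRNAs, had 69.7 ± 29.4 CPM (SD, n = 4) in endosteal and 193 ± 52.7 CPM (SD, n = 4) in central WT libraries (log2 fold change -1.48, standard error 0.44, FDR = 0.449 with edgeR and 0.0441 with DESeq2). Oxa1l, which inserts new mitochondrial proteins into the inner membrane, had 110 ± 47.6 and 22 ± 17.8 CPM (log2 fold change 2.30, standard error 0.73, FDR = 0.481 with edgeR and 0.0867 with DESeq2). Both differed the same way between central libraries of the 2 genotypes, where Lrpprc differed by -1.92 on the log2 scale (FDR = 0.292 with edgeR, 0.0021 with DESeq2) and Oxa1l one of 2.06 (FDR = 0.487 with edgeR). Those comparisons share the central WT libraries. Guf1 (1.24) and Gfm2 (1.61), factors that act on the ribosome during elongation and recycling, are log2 fold changes between the genotypes in endosteal HSCs, both with overlapping groups.

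Of 19 synthetases that charge mitochondrial tRNAs, Lars2 stood apart in level. It had 19583 ± 4500 CPM (SD, n = 4) in central and 5795 ± 3087 CPM (SD, n = 4) in endosteal WT libraries, and 4727 ± 3361 and 1523 ± 874 CPM in central and endosteal libraries labelled Gfra2-/-. The log2 fold change between WT compartments was -1.77 (standard error 0.30, FDR = 0.142 with edgeR and 0.00118 with DESeq2) and that between genotypes -2.07 in central and -1.92 in endosteal HSCs. Whether reads from other sequences enter this count was not tested. Gars, which charges glycine in both the cytosol and mitochondria, had 109 ± 41.2 CPM in endosteal and 29.8 ± 21.9 CPM in central WT libraries, and Kars, its counterpart for lysine, 253 ± 134 and 110 ± 33.2 CPM in endosteal and central Gfra2-/- libraries.

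Transcripts of the mitochondrial genome, which the mitoribosome reads, did not follow the Mrp genes in one direction. Of the 12 mitochondrial mRNAs tested between WT compartments, 10 were lower in endosteal HSCs, and the median was -0.51 on the log2 scale. mt-Nd2 had the lower level in endosteal WT libraries (1628 ± 630 against 4797 ± 1203 CPM; log2 fold change -1.58, FDR = 0.142 with edgeR), and mt-Co1 the higher (5515 ± 1410 against 2254 ± 576 CPM; log2 fold change 1.27, FDR = 0.161 with edgeR). The 2 rRNAs, mt-Rnr1 and mt-Rnr2, had log2 fold changes of -0.60 and -0.63. In central HSCs 11 of 12 mRNAs were lower under the Gfra2-/- label, and edgeR called 3 of the 12, mt-Nd2 and mt-Nd6 as lower and mt-Co1 as higher. Between the genotypes in endosteal HSCs 10 of 12 were lower under that label, as was the share of the Mrp genes. Mitochondrial reads can also match nuclear copies, and rRNAs are not regular products of a poly(A)-primed library, so these values are uncertain.

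Of 11 genes for transcription and replication of mitochondrial DNA, none had an unadjusted p under 0.05 between compartments of either genotype or in central HSCs. Polrmt, the mitochondrial RNA polymerase, had 31.8 ± 27.8 CPM (SD, n = 4) in endosteal WT and 7.73 ± 2.83 CPM (SD, n = 4) in endosteal Gfra2-/- libraries (log2 fold change -2.04, standard error 0.87, FDR = 0.737 with edgeR), and Ssbp1, a single-strand binding protein, differed by 0.82. Among WT compartments, Polrmt differed by 2.10 and Twnk, the helicase, by -0.53. Tfb2m, a transcription factor of mitochondria, had log2 fold changes of 1.70 between compartments under the Gfra2-/- label and -2.05 between genotypes in central HSCs.

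The factors whose motifs are printed above varied in part. Yy1 had 119 ± 28.7 CPM (SD, n = 4) in endosteal WT and 34.1 ± 11.6 CPM (SD, n = 4) in endosteal Gfra2-/- libraries, with no overlap (log2 fold change -1.79, standard error 0.40, FDR = 0.478 with edgeR and 0.0053 with DESeq2). Between WT compartments its means were 119 and 121 CPM, with overlapping groups. Myc, which raises ribosome and mitochondrial genes, differed the other way, with 249 ± 64.2 CPM in endosteal Gfra2-/- and 139 ± 18.5 CPM in endosteal WT libraries (log2 fold change 0.84, FDR = 0.696 with edgeR). Nrf1 had 93.7 and 61.3 CPM in endosteal and central WT libraries and Gabpa 58.9 and 26.7, with log2 fold changes of 0.60 and 1.12 and unadjusted p-values over 0.1. Pprc1, a coactivator of NRF1, had a log2 fold change of 1.48 between WT compartments, -0.89 between compartments under the Gfra2-/- label and -1.18 between genotypes in endosteal HSCs, and Gabpb1 one of 1.30 between genotypes in central HSCs.

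**Figure D5:**
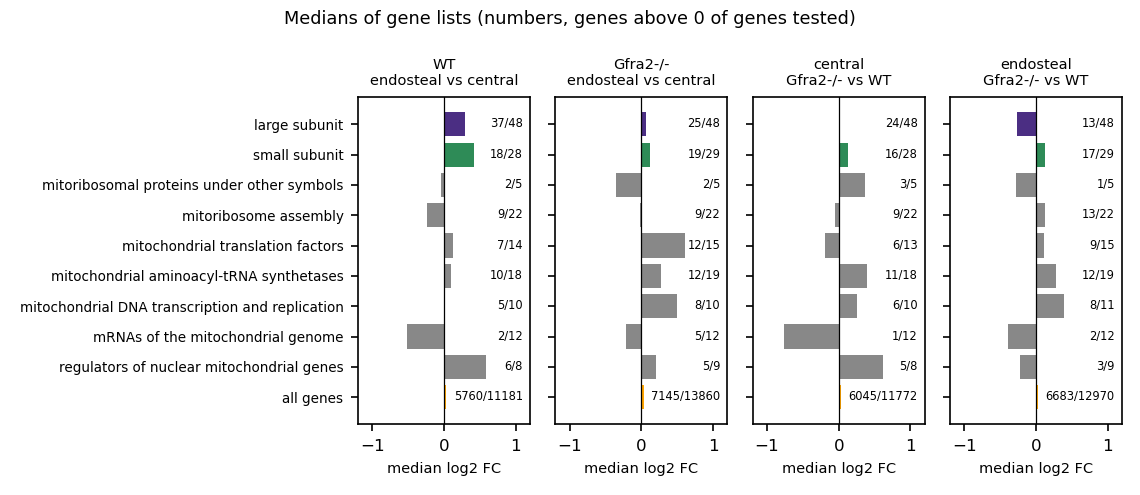
Median log2 fold change of the Mrp genes by symbol, of 7 lists of genes that act with them and of all genes in the 4 pairwise comparisons; the numbers give genes above 0 of genes tested. Large- and small-subunit medians lie at 0.30 and 0.42 between WT compartments, where the mRNAs of the mitochondrial genome lie at -0.51.

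The proteins of the cytosolic ribosome and of the respiratory chain, taken by symbol and added after the data were seen, give a scale for these values. Between WT compartments, 48 of 78 cytosolic ribosomal protein genes were lower in endosteal HSCs (median log2 fold change -0.27), whereas 55 of 76 mitochondrial ones were higher, and the 74 nuclear respiratory chain genes had a median of 0.00. Between the genotypes in endosteal HSCs, 72 of 79 cytosolic ribosomal protein genes (median -0.56) and 65 of 75 respiratory chain genes (median -0.55) were lower under the Gfra2-/- label, against 47 of 77 mitochondrial ribosomal protein genes (median -0.17). The differences between these lists were not tested.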

How the data were processed

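The authors aligned Smart-seq2 reads to GRCm38 with GSNAP and deposited the counts per gene from htseq-count (HTSeq 0.5.3p3), made without regard to strand and not normalized. Of the columns, 15 were used. The other 1 is not in the study's list of libraries and was not used. Symbols, positions and exons came from GENCODE M21, which can differ from the Ensembl release the authors used. Each comparison used edgeR 4.0.16 (R 4.3.3) on the counts of its 2 groups (all 15 libraries for the interaction): filterByExpr, TMM, the quasi-likelihood test, and Benjamini-Hochberg adjustment over all genes with a threshold of 0.1. DESeq2 1.42.0 without independent filtering was an alternative. Both kinds of p come from these fits across all genes. CPM were scaled by TMM over 15 libraries, and lengths are those of merged exons. Tables were made with Python 3.11.15. The edgeR fits were also run on simulated counts with the same spread for all genes, unlike these data. That run checks the code, not the power of the tests here.

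The genes, the lists and the tests were chosen with earlier results of these data known. Named genes are, per comparison, the 4 in each direction with the smallest p, any past the threshold in either tool, those at the ends of the order of levels, those with a known role, and 2 per related list. Not all of the last are named. Related and marker lists were compiled by hand, and some marker genes are not reported here. No test was made over a list as a whole. PCR copies could not be told from separate molecules, since no molecular identifiers were used.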

Additional observations from a re-analysis of the deposited data

Results flagged for a closer look

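Of 42 checks of a group of 4 libraries (the share of counts and 13 genes), 4 were flagged. In these, 1 library lay far from the other 3 by Dixon's criterion. Independent values of a normal distribution would give about 1 in 20, or 2.1 of 42. Whether these values meet that was not tested, so no conclusion is drawn from the number flagged. All 4 flagged values lay in central WT HSCs, the shallowest group. They were Mrpl35 in library D (21.9 CPM), Mrps26 in library A (184 CPM), Mrps31 in library A (34.4 CPM) and Mrps9 in library B (22.1 CPM).

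The difference between endosteal and central HSCs depended on the genotype label at an unadjusted p under 0.05, but not after adjustment, for Mrpl4 (-2.12 on the log2 scale) and Mrpl36 (-1.73).

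Processed pseudogenes, which the comparisons do not use, also held counts over the 15 libraries: 5787 for Mrpl23-ps1, 2284 for Mrpl48-ps, 496 for Mrps36-ps1 and 70 for Mrps36-ps2. Mrpl23-ps1 had 41.0 ± 3.72 CPM (SD, n = 4) in endosteal and 35.1 ± 21.8 CPM (SD, n = 4) in central WT libraries.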

How the results depend on the processing

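No paired analysis was possible because no column of counts has a replicate number. No setting other than DESeq2's test called a gene of this family, and DESeq2 called 1 in each of the first 3 comparisons named in the report (endosteal against central in WT and under the Gfra2-/- label, and the genotypes in central HSCs). Scaled by spike-in reads, all genes had medians that shifted to 1.58, -0.46, 1.75, -0.28 and -2.18 in the 4 pairwise comparisons and the interaction, and that of the family to 1.91, -0.44, 1.79, -0.66 and -2.37. Relative to all genes the family then differed by 0.33, 0.02, 0.03, -0.38 and -0.19. With only libraries of the batch with more spike-in, the median between compartments under the Gfra2-/- label was 0.22. Between genotypes in central HSCs, the median was -0.073 with at least 10 counts in every library, -0.10 with counts thinned to 826487, and -0.083 with only libraries past the quality limits, against 0.08. The interaction had a median of -0.11 with DESeq2, -0.090 with its size factors and -0.10 with thinned counts. Mrps5, at -1.47 between genotypes in central HSCs, was at 0.0044 relative to all genes with spike-in size factors. For these moves the cause was not tested.

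With each library left out in turn, the number of called genes stayed at 0 in all 5 comparisons. The medians then ranged from 0.27 to 0.52 (WT compartments; highest without central WT library B), from -0.013 to 0.19 (Gfra2-/- compartments; lowest without endosteal library B), from -0.10 to 0.18 (central genotypes; lowest without Gfra2-/- library C), from -0.28 to -0.12 (endosteal genotypes) and from -0.43 to -0.16 (interaction; lowest without central Gfra2-/- library A). The differences in share ranged from 0.104 to 0.141, 0.0182 to 0.0464, 0.00431 to 0.0325 and -0.09 to -0.0529 percentage points in the 4 pairwise comparisons.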
